A study of Mus musculus with 12 samples.

Results

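The D-box activators Dbp, Tef and Hlf and the rhythmic output genes Usp2, Wee1 and Por stand at the output end of the circadian clock and were followed in mouse liver. They were chosen by symbol, and all 6 were found among the 48537 genes of the deposited table. Livers were collected at zeitgeber time 10 (counted in hours from lights on) and fell into 3 groups of 4. Control livers were labelled wildtype and YFP (yellow fluorescent protein). Livers labelled DKO carried the genotype label REV-ERBs double-knockout and also YFP. Re-expression livers were labelled as double-knockout livers in which REV-ERBalpha was expressed again. The REV-ERBs are repressor proteins of the clock: Nr1d1 codes for REV-ERBalpha and Nr1d2 for REV-ERBbeta. Age, sex, the driver of the knockout, the way in which REV-ERBalpha was supplied and any pooling of animals are not given in the sources used here. The design text names the comparison of these 3 groups.

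DBP, TEF and HLF are the PAR bZIP factors, transcription activators with a leucine zipper that bind the D-box, a short DNA element found near many rhythmic genes. NFIL3 is a repressor that binds the same element, and in the textbook scheme its own gene is repressed by the REV-ERBs through ROR elements, the sites at which REV-ERBs and the activating ROR receptors compete. Dbp itself is driven by CLOCK and BMAL1 through E-boxes. USP2 removes ubiquitin from proteins, WEE1 is a kinase that holds cells back from mitosis, and POR passes electrons from NADPH to the microsomal cytochrome P450 enzymes of the liver.

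Per library, 5621667 to 6906221 reads on genes could be recovered from the deposited TPM values (abundance per gene length, scaled to 1 fixed total in each library). Across control, DKO-labelled and re-expression livers Nr1d1 averaged 68.7 ± 5.53, 82.5 ± 7.39 and 191 ± 22.4 TPM (SD, n = 4). Nr1d2 averaged 96.6 ± 14.9, 90.4 ± 7.91 and 97.7 ± 15.1 TPM in the same order. Neither gene was lower in livers labelled DKO by limma (adjusted p = 0.173 for Nr1d1, with a log2 difference of 0.26, and 0.792 for Nr1d2). These values run over all exons of each gene, so they do not check a deletion of part of it, and the group is called "labelled DKO" throughout. The hepatocyte markers Alb, Apoa1, Ttr, Cps1 and Hnf4a summed to between 35906 and 41568 TPM in all 12 libraries, and none was at 0.

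Sequences around the transcription starts were searched for the elements named above, to show which of them lie close to these genes. RefSeq (GRCm38.p6) gave 6 windows for 5 of the 6 genes, each from 250 bases before to 50 bases after a start. Both strands were searched for the D-box letters TTATGTAA and TTACGTAA, the E-box CACGTG and its variant CACGTT, and the ROR element letters TAGGTCA and TGGGTCA, and no hits overlapped. Wee1 was not searched, nor was any sequence outside these windows, such as other starts or introns. Among the windows of the 5 genes, only those of Tef held any of these letters. CACGTG began at position -127 from the first start and at -138 from the second. CACGTG occurred in 7.15% of 32851 RefSeq windows of the same length. The window of Nfil3, which is set against the activators further on, held TAGGTCA on the opposite strand at -12 from the start, letters found in 2.61% of windows. The other letters stood in 0.938% (TTATGTAA), 0.119% (TTACGTAA), 4.68% (CACGTT) and 3.98% (TGGGTCA) of windows. A match in letters is a description and not a bound site. The 3 windows with a match are shown 5′ to 3′ on the strand of the gene, with the E-box of Tef and the ROR element letters of Nfil3, read on the opposite strand, in capitals:
Tef, first start, plus strand, chr15:81802423-81802722: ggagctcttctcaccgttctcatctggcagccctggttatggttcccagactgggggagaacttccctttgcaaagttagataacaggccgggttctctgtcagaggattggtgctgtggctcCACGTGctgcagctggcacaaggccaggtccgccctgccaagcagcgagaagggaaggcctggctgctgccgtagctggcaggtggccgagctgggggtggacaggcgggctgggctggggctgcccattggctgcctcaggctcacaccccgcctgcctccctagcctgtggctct
Tef, second start, plus strand, chr15:81811164-81811463: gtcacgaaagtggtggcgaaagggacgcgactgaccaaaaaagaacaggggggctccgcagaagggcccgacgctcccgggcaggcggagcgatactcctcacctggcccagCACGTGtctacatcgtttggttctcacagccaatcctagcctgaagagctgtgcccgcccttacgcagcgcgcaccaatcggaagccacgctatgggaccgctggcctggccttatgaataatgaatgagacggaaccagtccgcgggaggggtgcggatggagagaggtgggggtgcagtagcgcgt
Nfil3, minus strand, chr13:52980990-52981289: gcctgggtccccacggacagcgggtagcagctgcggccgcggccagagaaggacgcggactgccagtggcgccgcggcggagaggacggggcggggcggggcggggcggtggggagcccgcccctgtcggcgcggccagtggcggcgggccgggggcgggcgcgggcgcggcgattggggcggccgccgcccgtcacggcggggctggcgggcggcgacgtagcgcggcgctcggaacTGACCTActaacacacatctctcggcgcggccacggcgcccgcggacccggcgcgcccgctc

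The 4 genes lower in livers labelled DKO than in control livers were Wee1, Usp2, Por and Tef, while Dbp and Hlf did not pass the test. Wee1 fell most, from 29.7 to 9.13 TPM. Testing was by limma on log2(TPM + 1) over 17957 genes with a mean of at least 1 TPM, two-sided, with Benjamini-Hochberg adjustment and a threshold of 0.05. On this scale the change of a gene with a low TPM is understated. Of the 6 genes, 4 were called lower and 0 higher, where 2.34% of all tested genes were called lower and 5.33% in either direction. The same 4 genes had groups that did not overlap with control, where 5.4% of tested genes lay wholly below control. All 6 genes passed the filter on low values. All livers were collected at the same zeitgeber time, so these calls, and the lack of a call for Dbp and Hlf, concern levels at that time only. Whether the daily timing or the size of the daily swing of the 6 genes differed between groups was not tested.

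Among the D-box activators, Tef (chromosome 15, 81802421 to 81826863, plus strand, mm10; ENSMUSG00000022389) had 127.1, 122.9, 107.1 and 126.6 TPM in control replicates 1 to 4. In livers labelled DKO it had 87.9, 95.6, 99.5 and 95.7 TPM, so every one of these lay below every control liver. In re-expression livers it had 101, 106, 107 and 109.7 TPM, above all livers labelled DKO and reaching the lowest control liver. The mean fell by 21.7% in livers labelled DKO, a log2 difference of -0.35 ± 0.07 (SE; 95% interval -0.50 to -0.20; limma adjusted p = 0.014). Fitted on the 8 libraries of the 2 groups alone, Tef differed by -0.35 as well but missed the threshold (limma adjusted p = 0.0525). In the authors' deposited table the log2 fold change of Tef was -0.35 (adjusted p = 0.000123).

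Dbp (chromosome 7, 45705088 to 45710203, plus strand; ENSMUSG00000059824), the activator with the best known daily swing in liver, had 56.2, 57.2, 54.6 and 78.8 TPM in control livers. Values of 50.8, 51.8, 63.9 and 48.0 TPM in livers labelled DKO and of 59.8, 55.0, 65.2 and 76.6 TPM in re-expression livers overlapped with them. One control liver, replicate 4, stood above the other 3. The log2 difference between livers labelled DKO and control was -0.19 ± 0.14 (95% interval -0.50 to 0.11; limma adjusted p = 0.524), and without control replicate 4 it was -0.07. Of the 2993 exon bases of Dbp, 539 (18.0%) lie under exons of Sphk2 on the opposite strand, a gene with a mean of 21.5 TPM. The sources used here do not say how the counting treated strand, so reads of Sphk2 in this stretch may not have been kept apart from those of Dbp.

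Hlf (chromosome 11, 90336536 to 90390895, minus strand; ENSMUSG00000003949) was the least abundant of the 3 activators. Its values were 32.6, 39.8, 25.2 and 27.0 TPM in the control group, 28.4, 36.0, 30.6 and 31.5 TPM in livers labelled DKO, and 40.1, 32.4, 38.2 and 35.8 TPM in re-expression livers. The 3 groups overlapped, with the widest spread among the controls. The difference of livers labelled DKO from control was 0.04 ± 0.13 on the log2 scale, and its 95% interval of -0.26 to 0.33 bounds a change of either sign (limma adjusted p = 0.923).

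Among the output genes, Wee1 (chromosome 7, 110122046 to 110143286, plus strand; ENSMUSG00000031016) had 34.0, 32.7, 21.9 and 30.0 TPM in control livers. Livers labelled DKO had 9.11, 8.32, 9.33 and 9.75 TPM, and re-expression livers had 16.5, 11.1, 16.4 and 12.3 TPM. The 3 groups did not overlap with each other, and the livers labelled DKO were the closest together. The Wee1 values rest on 154 to 266 recovered reads per control library, 63 to 76 per library labelled DKO and 87 to 135 per re-expression library. Wee1 was 3.25-fold lower in livers labelled DKO than in control, a log2 difference of -1.58 ± 0.16 (95% interval -1.92 to -1.24; limma adjusted p = 0.00016). It was still 2.10-fold lower in re-expression livers than in control, at -1.02 ± 0.16 (95% interval -1.36 to -0.68; limma adjusted p = 0.0064).

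Usp2 (chromosome 9, 44067021 to 44095627, plus strand; ENSMUSG00000032010) had 40.0, 45.1, 35.8 and 44.5 TPM in control livers. It had 19.1, 23.0, 27.8 and 20.9 TPM in livers labelled DKO, and 32.9, 29.8, 35.6 and 34.0 TPM in re-expression livers. The re-expression livers lay between the other groups with no overlap on either side, although the highest of them came within 1 TPM of the lowest control liver. Usp2 was 1.82-fold lower in livers labelled DKO than in control, a log2 difference of -0.84 ± 0.12 (95% interval -1.10 to -0.59; limma adjusted p = 0.00168).

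Por (chromosome 5, 135670033 to 135735326, plus strand; ENSMUSG00000005514) was the most abundant of the 6 genes. It had 351, 324, 411 and 491 TPM in the control group, 252, 255, 272 and 195 TPM in livers labelled DKO, and 239, 299, 309 and 311 TPM in re-expression livers. Control livers were above all livers of the other 2 groups, which overlapped with each other. Por was 1.62-fold lower in livers labelled DKO than in control, a log2 difference of -0.69 ± 0.14 (95% interval -1.0 to -0.37; limma adjusted p = 0.0189). This call was lost without the lowest liver labelled DKO, replicate 4 (-0.58, limma adjusted p = 0.0529), and in the fit to the 8 libraries of the 2 groups (-0.69, limma adjusted p = 0.0514). In the authors' deposited table the log2 fold change of Por was -0.71 (adjusted p = 0.00921).

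**Figure D1:**
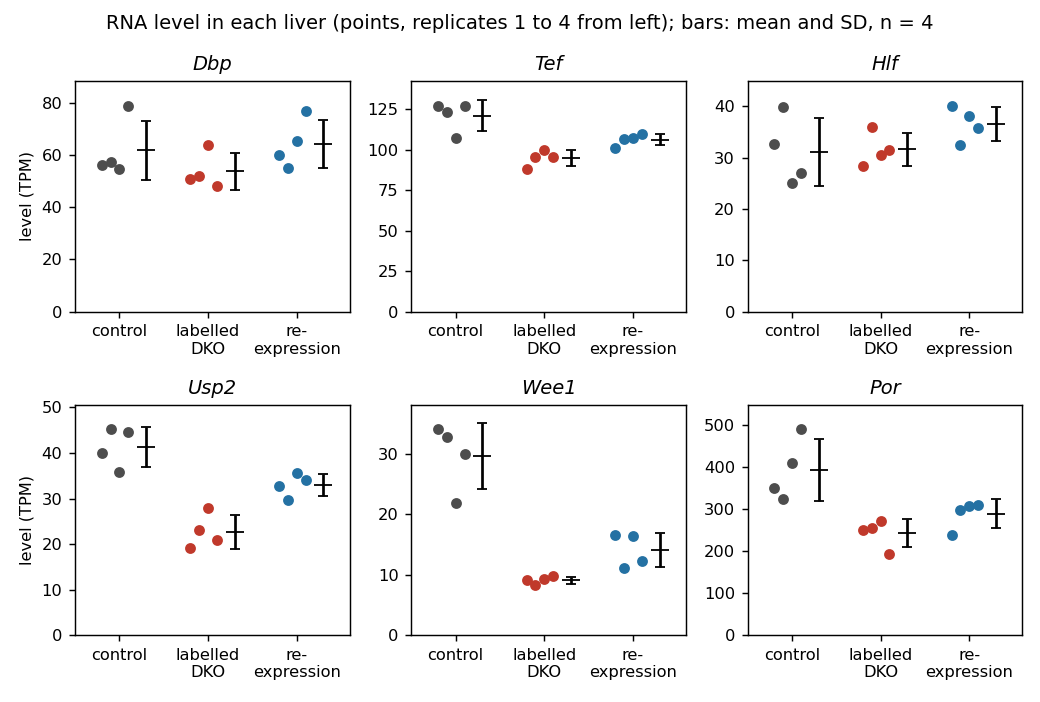
TPM of the 6 genes in each liver by group, with points for livers and a bar for the mean ± SD (n = 4 per group), on linear axes that start at 0. Wee1 sits at 8.32 to 9.75 TPM in the livers labelled DKO and at 21.9 to 34.0 TPM in the control livers, while the groups of Dbp and of Hlf overlap.

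The question of how far re-expression of REV-ERBalpha moved these genes was addressed against the livers labelled DKO. Of the 6 genes, 0 were called by limma in this comparison, where 0.0724% of tested genes were called, 13 in all. At an unadjusted p under 0.05, Tef, Usp2 and Wee1 (3 of 6) were higher, where 2.85% of tested genes were. The same 3 genes had re-expression livers wholly above the livers labelled DKO, where 2.09% of tested genes did. A count-based fit with voom on the recovered reads also called 0 of the 6.

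On re-expression Usp2 was 1.45-fold higher than in livers labelled DKO, a log2 difference of 0.53 ± 0.12 (95% interval 0.28 to 0.79; limma adjusted p = 0.183). In the authors' deposited table this difference of Usp2 was 0.53 with an adjusted p of 0.0154, past the threshold. Wee1 was 1.54-fold higher, at 0.56 ± 0.16 (95% interval 0.22 to 0.90; limma adjusted p = 0.37), and the authors' deposited table gave it 0.61 (adjusted p = 0.105). Tef differed by 0.16 ± 0.07 (95% interval 0.01 to 0.31; limma adjusted p = 0.762). All 6 log2 differences were above 0. The other 3 genes, Dbp at 0.25 (95% interval -0.05 to 0.56), Por at 0.25 (-0.06 to 0.57) and Hlf at 0.21 (-0.09 to 0.50), had intervals that included 0.

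Against control, Wee1 was the 1 of the 6 genes called lower by limma in re-expression livers, where 0.663% of tested genes were called lower. Wee1, Usp2 and Por (3 of 6) lay wholly below control, where 3.0% of tested genes did. Por differed by -0.43 ± 0.14 (95% interval -0.75 to -0.12; limma adjusted p = 0.201). Usp2 differed by -0.31 ± 0.12 (95% interval -0.57 to -0.06; limma adjusted p = 0.267). Tef differed by -0.18 ± 0.07 (95% interval -0.33 to -0.03; limma adjusted p = 0.27). Dbp at 0.06 (95% interval -0.24 to 0.37) and Hlf at 0.24 (-0.05 to 0.54) had intervals that included 0. The re-expression group shares its libraries with the preceding comparison and the control group with the first, so the 3 sets of differences are not independent.

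**Figure D2:**
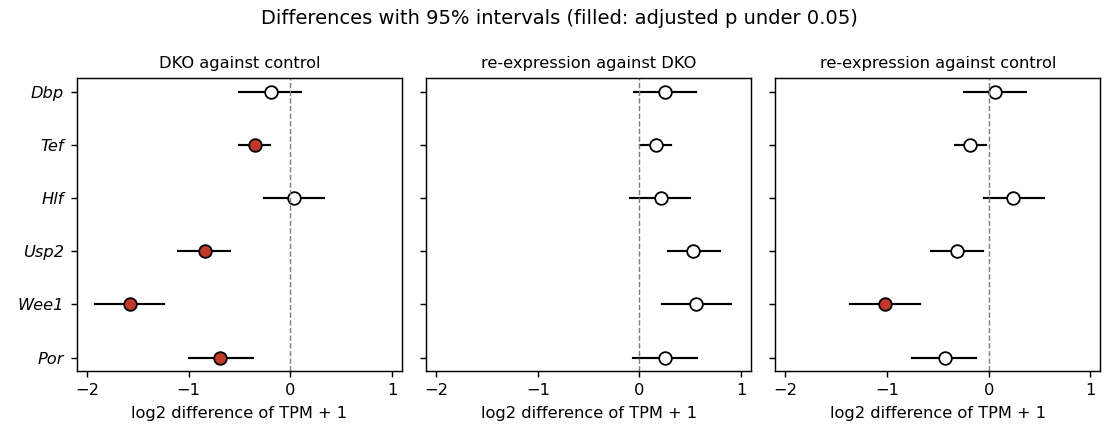
Log2 difference of TPM + 1 for each of the 6 genes in the 3 comparisons, with bars for the 95% interval and filled symbols for a limma adjusted p under 0.05. Wee1, at -1.58 for livers labelled DKO and -1.02 for re-expression livers against control, lies farthest from 0.

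TPM is here per length of a gene, counted over all its exon bases, so the levels can be put in order between genes. A gene with several transcripts may have more exon bases than any 1 of them, so this order is approximate. In each of the 3 groups the order began with Por, Tef and Dbp, with no overlap between neighbours in any group. In control livers Usp2, Hlf and Wee1 followed, and neither Usp2 and Hlf nor Hlf and Wee1 were apart in range, although Usp2 exceeded Hlf in 4 of 4 livers. In livers labelled DKO the order was Dbp, Hlf, Usp2 and Wee1, and no neighbours overlapped. Usp2 thus stood below Hlf in all 4 livers of that group and above it in all 4 control livers. In re-expression livers Hlf exceeded Usp2 in 4 of 4 livers with overlapping ranges, and Wee1 was again the lowest.

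The activators were next set against NFIL3, the repressor at the same element. Nfil3 had 28.7, 22.1, 26.5 and 30.3 TPM in the control group, 134, 119, 134 and 125 TPM in livers labelled DKO, and 103, 96.4, 101 and 95.6 TPM in re-expression livers, with no overlap between groups. Nfil3 rose by 2.22 ± 0.09 on the log2 scale in livers labelled DKO against control (limma adjusted p = 8.46e-08) and was higher by 1.85 ± 0.09 in re-expression livers than in control (limma adjusted p = 8.13e-07). Between re-expression livers and livers labelled DKO it differed by -0.37 ± 0.09 (limma adjusted p = 0.26). The summed TPM of Dbp, Tef and Hlf averaged 213.8 ± 19.3, 179.9 ± 11.5 and 207 ± 12.2 across control, DKO-labelled and re-expression livers.

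The ratio of summed activator TPM to Nfil3 TPM was thus 7.52, 9.94, 7.05 and 7.67 in control livers. It was 1.25, 1.53, 1.45 and 1.40 in livers labelled DKO, and 1.96, 2.01, 2.08 and 2.32 in re-expression livers. Gene lengths enter the ratio, so its size is not a count of molecules. This ratio is given as a description, with no test. The 3 groups did not overlap, and the ratio in re-expression livers lay nearer to that of livers labelled DKO than to control. Nfil3 alone also did not overlap between groups, while the activator sums did. These sums ran from 186.8 to 232.4, 167.1 to 194.0 and 193.8 to 222.0 TPM across control, DKO-labelled and re-expression livers. Tef made up 56.6% ± 1.87, 52.7% ± 1.40 and 51.4% ± 2.44 of the summed activator TPM across control, DKO-labelled and re-expression livers (SD, n = 4). The share of Hlf was 14.6% ± 2.75, 17.6% ± 1.63 and 17.7% ± 1.70 in the same order.

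**Figure D3:**
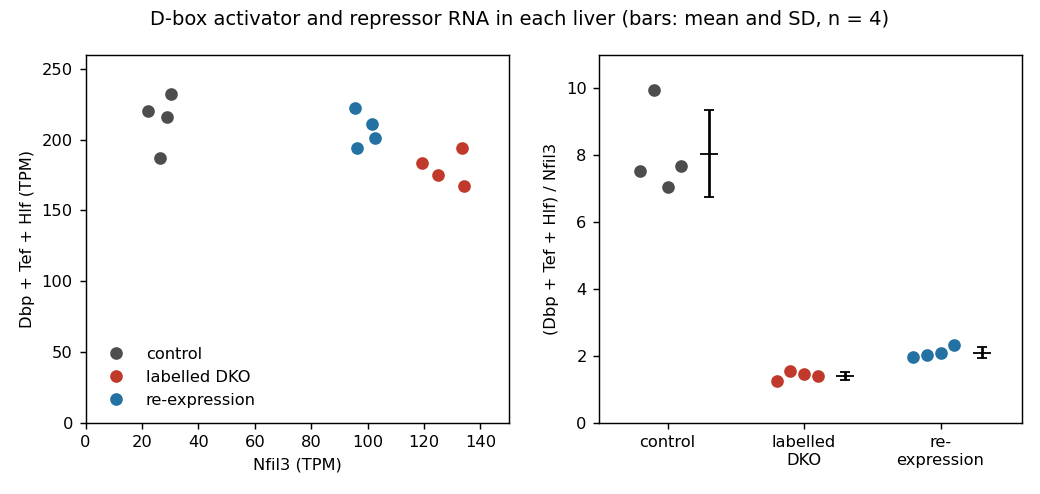
Summed TPM of Dbp, Tef and Hlf with the TPM of Nfil3 in each liver, and their ratio, with points for livers and bars for the mean ± SD (n = 4 per group). The ratio lies at 7.05 to 9.94, 1.25 to 1.53 and 1.96 to 2.32 for control, DKO-labelled and re-expression livers.

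Known liver targets of the PAR bZIP factors were described as a list of 10 genes, all of which were tested. In livers labelled DKO against control 4 were called lower and 1 higher, with a median log2 difference of -0.33 against 0.00 over all tested genes. Ppara, the fatty acid receptor, fell from 255.7 ± 8.50 to 160.1 ± 8.76 TPM (log2 difference -0.67, limma adjusted p = 0.000394). Per3 fell by 0.71 on the log2 scale (limma adjusted p = 0.00207). The bile acid gene Cyp7a1, whose enzyme sets the rate of their synthesis, dropped from 156.8 ± 46.1 to 41.2 ± 24.7 TPM (-2.12, limma adjusted p = 0.0366), and Per2 fell by 0.43 (limma adjusted p = 0.0456). The calls of Cyp7a1 and Per2 were lost in 11 and 14 of 20 alternative settings. Cyp2a5, the coumarin hydroxylase, rose from 2414 ± 413 to 4848 ± 320 TPM (1.02, limma adjusted p = 0.000394).

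Alas1, the first enzyme of heme synthesis, had 613 ± 28.3 TPM in control against 309 ± 179 in livers labelled DKO, which missed the threshold by limma (adjusted p = 0.0569) and was called by voom. In re-expression livers against livers labelled DKO, 0 of the 10 targets were called by limma and 0 by voom (5 at an unadjusted p under 0.05), with 8 above 0 and a median of 0.30 against 0.01 over all genes. Against control, 2 were called higher in re-expression livers and 0 lower, with a median of -0.08 against 0.01 over all genes. These were Cyp2a5 (0.70, limma adjusted p = 0.00921) and Nr1i3 (0.32, limma adjusted p = 0.036), the xenobiotic receptor CAR. The call of Nr1i3 was lost in 13 of 20 alternative settings, and that of Cyp2a5 with the 8 libraries alone (limma adjusted p = 0.0562).

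**Figure D4:**
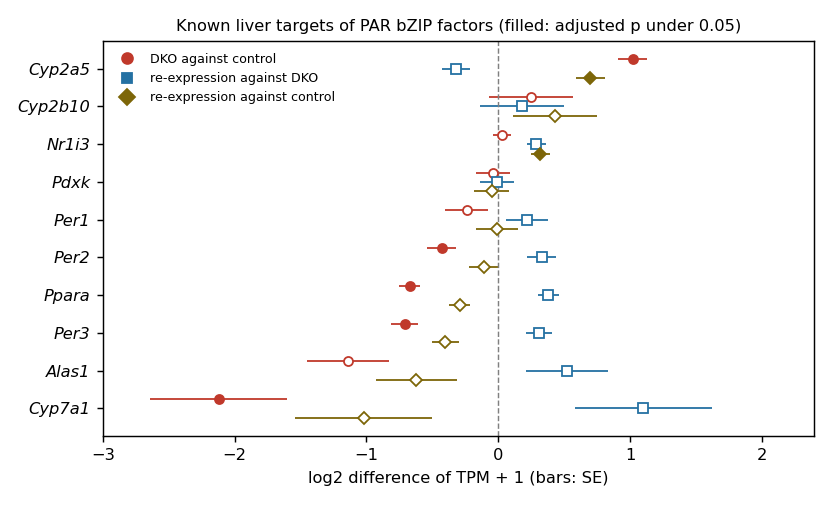
Log2 difference of TPM + 1 for the 10 known liver targets of PAR bZIP factors in the 3 comparisons, with bars for 1 SE and filled symbols for a limma adjusted p under 0.05. Cyp2a5 lies at 1.02 and Ppara at -0.67 in livers labelled DKO against control.

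Around the 3 output genes, lists of partner genes were read beside the 5.33% of all tested genes called in livers labelled DKO against control. At such a share, 0 calls in lists this short say little about their genes. Of 10 genes that receive electrons from POR or work beside it, such as cytochrome b5 and the P450 enzymes Cyp2e1 and Cyp3a11, 0 were called by limma or voom in any of the 3 comparisons, with medians of -0.02, 0.09 and 0.06. At an unadjusted p under 0.05 there were 2 (Hmox1 and Cyp51) in livers labelled DKO against control and 0 in the other comparisons. The difference between Por and these partners was not tested. Of 10 genes of WEE1 and entry into mitosis, 3 had enough RNA to be tested (Cdk2, Ccnb2 and Cdc25a), and 0 were called by limma or voom or reached an unadjusted p under 0.05 in any comparison. USP2 acts on proteins, so the RNA levels of its substrates do not show its activity. Among 6 known substrates of USP2, Arntl and Cry1, also among the core clock genes below, rose in livers labelled DKO against control. Their log2 differences were 3.60 and 2.46 (limma adjusted p = 1.37e-08 and 1.22e-06), and 0 of the 6 were called lower by limma. Fasn, the fatty acid synthase on this list, averaged 222 ± 24.2 TPM in control and 112 ± 47.9 in livers labelled DKO, which missed the threshold by limma (-1.08, adjusted p = 0.0543) and was called by voom. On re-expression 0 of these 6 were called against livers labelled DKO by limma, with 2 at an unadjusted p under 0.05 and 1, Cry1, called by voom. Against control limma called 2 of them in re-expression livers, Arntl and Cry1, both higher. Fasn was lower there (-1.17, limma adjusted p = 0.0723) and was again called by voom. Of 11 genes of ubiquitin and kinase control of clock proteins, 0 were called by limma or voom or reached an unadjusted p under 0.05 in any comparison. In the C/EBP family, bZIP factors related to the D-box activators, Cebpa was the 1 of 5 genes called lower in livers labelled DKO (-0.24, limma adjusted p = 0.043), and this call was lost in 14 of 20 alternative settings. In each of the other 2 comparisons 0 of the 5 were called by limma or voom, with 1 at an unadjusted p under 0.05.

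In the core clock list of 16 genes, 5 were called higher in livers labelled DKO than in control (Arntl, Npas2, Cry1, Clock and Nfil3), and Per2, Per3 and Bhlhe40 were among those called lower. Per2 and Per3 are also on the list of targets above. In re-expression livers against livers labelled DKO, Nr1d1 was called higher and Npas2 lower, the latter lost with a pseudocount of 0.1 (limma adjusted p = 0.0572). Npas2, a partner of BMAL1, averaged 0.0713 ± 0.0943, 13.0 ± 2.30 and 2.48 ± 0.613 TPM across control, DKO-labelled and re-expression livers. Against control, re-expression livers had 6 of the 16 called higher, and Bhlhe40 was called lower, a call that was lost in 6 of 20 alternative settings.

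The genes whose pattern over the 12 libraries was most like each of the 6 were named by the smallest root mean square difference of centred log2(TPM + 1), among 8818 named genes with a mean of at least 5 TPM. The points share the libraries and their depth, so the measure is a description. Nearest to Usp2 was Cpt1a, the enzyme of fatty acid entry into mitochondria, at 0.103, followed by Ppara at 0.158 and Nceh1 at 0.170, where the spread of Usp2 about its own mean was 0.377. Cpt1a averaged 261 ± 17.8, 168 ± 20.1 and 229 ± 21.1 TPM in control livers, livers labelled DKO and re-expression livers. Nearest to Wee1 were Rnf152 at 0.221, Ttc23 at 0.271 and Rnf24 at 0.277, against its own spread of 0.684. Rnf152 averaged 22.7 ± 3.24, 8.82 ± 0.962 and 11.2 ± 0.489 TPM. Near to Por were Slc9a3r1 (0.136) and C77080 (0.144), against its own spread of 0.342.

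For the activators the nearest genes were Dock5 (0.0657), Mob3c (0.0745) and Cd1d1 (0.0787) for Tef, whose own spread was 0.160. Dbp was nearest to Hook2 (0.104), Pex11a (0.113) and Bicd2 (0.114), against 0.211. Hlf was nearest to Rbbp5 (0.0822), Riox2 (0.0917) and Braf (0.101), against 0.203. None of the other 5 genes was among the 3 nearest of any of the 6. Their ranks among the 8818 ran from 40, for Usp2 beside Wee1, to 8647, for Wee1 beside Hlf. Beside Usp2, Tef had rank 72 and Por rank 84, while Hlf had rank 3590. The measure depends on the size of each gene's spread, so a distant rank need not mean a different direction.

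Markers of other liver cell types were read in the same libraries, since fewer cells of a type and less RNA per cell cannot be told apart in bulk tissue. Of 6 stellate cell and fibroblast markers, Reln, Lrat and Dcn were called higher in livers labelled DKO, and the list summed to 124 to 164, 201 to 223 and 163 to 211 TPM across control, DKO-labelled and re-expression livers. Of 5 cholangiocyte markers, Sox9 was called higher, while the list summed to 74.5 to 105, 76.7 to 86.0 and 79.4 to 106 TPM. Of 5 hepatocyte markers, Ttr and Cps1 were called higher by limma and Cps1 alone by voom. All 5 reached an unadjusted p under 0.05, with 4 above 0 and 1, Alb, below (log2 difference -0.21). The list summed to 35906 to 40347, 38231 to 40961 and 37955 to 41568 TPM across control, DKO-labelled and re-expression livers. The calls of Dcn, Ttr and Cps1 were lost in 12, 11 and 4 of 20 alternative settings. The lists of Kupffer cells (318 to 822, 319 to 384 and 271 to 859 TPM), sinusoidal endothelium (135 to 149.6, 157 to 194 and 109 to 168 TPM), red blood cells (276 to 382, 399.9 to 686 and 372 to 835 TPM) and T cells and neutrophils (12.6 to 51.4, 7.24 to 15.4 and 7.60 to 21.8 TPM) held 0 calls by limma in that comparison, and no marker was at 0 in all libraries. At an unadjusted p under 0.05 there were 0, 3, 5 and 1 genes in these lists in that comparison, and voom called 1, the red blood cell gene Hbb-bs. The part of these shifts in the lower levels of Wee1, Usp2, Por and Tef was not tested.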

How the data were processed

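RNA-seq was done on 12 mouse livers. Total RNA was extracted with Trizol and column-cleaned, and 1 microgram per liver was made into stranded total RNA libraries, per the labels' protocols. The submitters' processing notes name build mm10 and, with no order, DESeq2 1.36.0, featureCounts 2.0.1, SAMtools 1.9, STAR 2.7.1a and bcl2fastq 2.17. The table deposited by the authors gave TPM per library, a gene length, and log2 fold changes with an adjusted p-value for 3 numbered comparisons. Columns were matched to livers by the words of their names.

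TPM is not a count. Values times the length less 199 bases were whole multiples of 1 read in each library (100% within 0.01 reads), which gave the depth, and these reads entered voom. Depth covers counting error only. Group means were fitted by limma 3.58.1 (R 4.3.3) to log2(TPM + 1) in all 12 libraries with a trend in the variance, a procedure tested on simulated data. P-values measure the spread between livers, which the labels call biological replicates. The authors' comparisons 1 and 2 matched DKO against control and re-expression against DKO (median gap of 0.00195 and 0.00114 log2 over 5236 genes with a mean of at least 20 TPM). Comparison 3 matched no pair of groups (smallest gap 0.113) and was not used. Positions came from GENCODE M21, whose exon bases equalled the deposited lengths of the 6 genes.

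The genes followed, the lists and the tests were chosen with earlier results of these data known. Named genes were the 6, Nr1d1, Nr1d2, Nfil3, up to 4 genes with the smallest p per list and comparison, and the 3 nearest genes by pattern, of which some are not reported here. The exceptions, named after their values were seen, are Per2, Clock, Bhlhe40, Alas1 and the partners given as examples. Alternatives changed the pseudocount, filter, scaling, libraries, replicate block and unit, and left out each library.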

Additional observations from a re-analysis of the deposited data

Results flagged for a closer look

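In groups of 4 livers, 21 sets of values were examined for 1 liver far from the other 3, and 2 met Dixon's 95% limit for the gap as a share of the range, where chance gives about 1 in 20. Dbp in control replicate 4 had 78.8 TPM, and without it the control mean was 56.0 TPM. Por in re-expression replicate 1 had 239 TPM, below the other 3 livers of its group.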

How the results depend on the processing

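Of 20 alternative settings, the fit to the 8 libraries of the compared groups ended the calls of Tef (-0.35) and Por (-0.69) in livers labelled DKO against control, leaving 2 of the 6 genes called. Leaving out 1 library gave 3 to 4 called genes, and Por ranged from -0.78 to -0.58, with its call lost without DKO replicate 4. Wee1 and Usp2 kept their side of the threshold in all 20. Hlf, never called, ranged from -0.055 to 0.16 when 1 library was left out and was below 0 without control replicate 3 (-0.055), control replicate 4 (-0.02) or DKO replicate 2 (-0.03). Dbp in re-expression livers against control, also never called, ranged from -0.026 to 0.18 and was below 0 without re-expression replicate 4 (-0.026). The causes were not tested.

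All-gene counts of calls moved more. For livers labelled DKO against control the count was 958, with 559 from 8 libraries and 573 to 922 with 1 library left out. For re-expression livers against livers labelled DKO it was 13, with 20 from 8 libraries, 26 by voom and 5 to 15 with 1 library left out. For re-expression livers against control it was 327, with 162 from 8 libraries, 526 by voom and 175 to 332 with 1 library left out. With the replicate number as a block the counts were 778, 8 and 209, and the block changed no call of the 6 genes. Correlations of same-numbered livers ran from -0.0688 to 0.1366, with 1 of 12 over 0.1, so the numbers were not taken as pairs. Each of the 4 control livers correlated best with the re-expression liver of its own number, a hint from the data, not the design. Settings for list genes were added after seeing the data. The part of counting error in the spread of Wee1, with 63 to 76 reads in libraries labelled DKO, was not tested.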
